A study of Mus musculus with 6 samples.

Results

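Secretin makes the bile ducts secrete, and the data described here are the transcript levels of 9 genes of that response in mouse biliary epithelial cells: Sctr, Vipr1, Sstr2, Adcy6, Cftr, P2ry2, Itpr3, Ano1 and Aqp1. The genes were chosen by function and found by their symbols in a table of 25302 rows, which held all 9. Biliary epithelial cells from liver were profiled by total RNA sequencing in 3 samples of the genotype Sox9fl/fl, called Control, and 3 samples of the genotype Sox9fl/fl:AlbCre+/-, called Sox9cKO. Both groups carry the floxed Sox9 alleles, and only Sox9cKO carries the AlbCre transgene, a Cre recombinase driven by the albumin promoter. No treatment is named in the labels, and ages are not given in the sources used here. The labels do not say that the samples came from separate animals, so the p-values measure the spread between these samples, which may be in part technical. The comparison asks which genes depend on Sox9, a transcription factor of the bile duct lineage.

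Cells of the bile duct alter bile by adding bicarbonate and water. Secretin binds its receptor on the basolateral side, adenylyl cyclase makes cyclic AMP, protein kinase A opens the chloride channel CFTR at the lumen, and chloride is exchanged for bicarbonate while water follows through aquaporins. A second route starts with ATP in bile, which acts on purinergic receptors, releases calcium through inositol trisphosphate receptors and opens calcium-activated chloride channels. Somatostatin opposes secretin by lowering cyclic AMP.

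Library totals were 11883496 to 16191990 reads in 5 samples, and the sum of normalized reads was 13564027 to 14728914 over all 6. Levels below are normalized reads, meaning gene counts scaled to a common depth. Sox9 had 6043 to 6293 normalized reads in Control and 3165 to 3363 in Sox9cKO (limma, log2 fold change -0.91, SE 0.095, adjusted p 0.00501). Sox9 was lower in each Sox9cKO sample, as its label says. All 14 listed biliary markers were present in every sample, and their sum differed 1.38-fold between the lowest and the highest sample. Transcripts of sinusoidal and vascular endothelium were also present, and the sum of 12 endothelial markers ran from 2001 to 44514 in Control and from 7235 to 45594 in Sox9cKO, with none at 0. Summed hepatocyte markers were at 22897 to 35751 in Control and 31853 to 47342 in Sox9cKO, with 2 of 12 called higher by limma, and mesenchymal markers at 2358 to 3126 and 2599 to 5498, with 0 of 12 called. The sum of leukocyte and erythroid markers was higher in every Sox9cKO sample (1537 to 1837 against 1071 to 1168, 1 of 8 tested called higher). The median log2 fold change of those 8 genes was -0.58, so the list did not rise as a whole. The sum of neuron and glia markers was lower in every Sox9cKO sample (66.2 to 121 against 149.6 to 196, 0 of 4 called). Of the biliary markers 1 of 14 was called higher, and of the endothelial markers 0 of 12. In bulk RNA, fewer cells of a type and less RNA per cell cannot be told apart.

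The 9 genes as a group did not move in one direction between the genotypes. Itpr3 and P2ry2, of the calcium route, were 1.62-fold and 1.55-fold higher in Sox9cKO, the receptor genes Vipr1, Sstr2 and Sctr had ratios of 0.631, 0.648 and 0.812, and Cftr, Ano1 and Adcy6 stayed between 0.870 and 1.14. Aqp1 had a ratio of 2.05 with a spread of 23.5-fold between samples. With limma and Benjamini-Hochberg adjustment over 17153 genes, 0 of the 9 passed an adjusted p-value of 0.05, against 2.97% of all genes tested (2.03% higher and 0.939% lower). Fitting the replicate number as a block let 2 of the 9 pass, Itpr3 and P2ry2, both higher, against 8.05% of all genes (5.06% higher and 2.99% lower). Before adjustment, 2 of the 9 had a p-value under 0.05 without the block (17.8% of all genes) and 4 with it (26.3%). In 4 of the 9 the groups did not overlap, 2 higher and 2 lower, against 24.2% of all genes tested (13.4% higher and 10.8% lower). The median log2 fold change was -0.073 for the 9 genes and 0.036 for all genes. On the reads of the 5 libraries that a count test could use, edgeR called 0 of the 9, edgeR with the block called 1 (Itpr3) and DESeq2 called 2 (Itpr3 and P2ry2). In the same order, these tests called 337, 983 and 1157 of the 17153 genes.

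**Figure D1:**
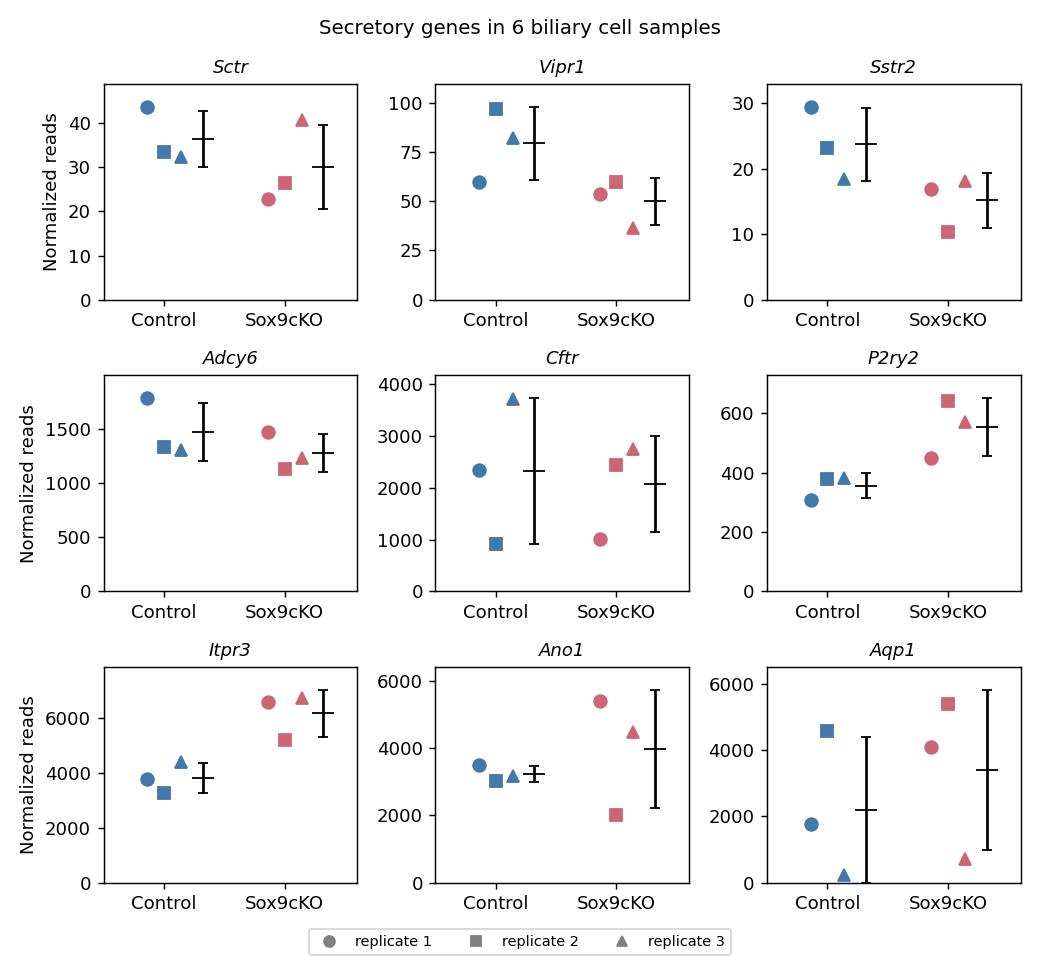
Normalized reads (vertical axis, starting at 0) of the 9 genes in the Control and Sox9cKO samples, with the marker shape giving the replicate number and black bars the mean ± SD (n = 3; the lower end for Aqp1 in Control lies below 0 and is not drawn). Itpr3 and P2ry2 are higher in all Sox9cKO samples, whereas Cftr and Aqp1 vary several-fold within each genotype.

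**Figure D2:**
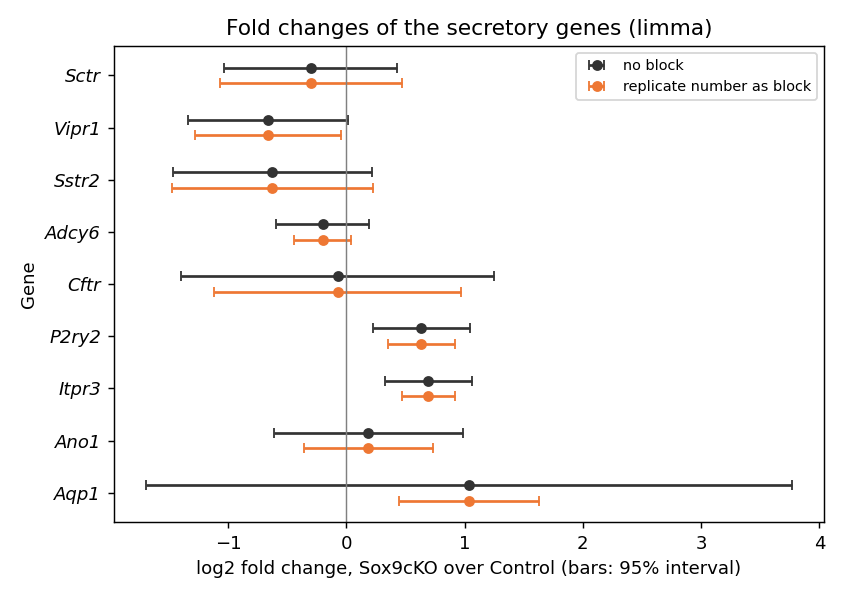
Log2 fold change of Sox9cKO over Control for each gene (points) with its 95% interval (bars) from limma, without and with a block for the replicate number. The intervals of Itpr3 and P2ry2 lie above 0 in both fits, and that of Aqp1 narrows from between -1.69 and 3.77 to between 0.44 and 1.63 with the block.

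Promoter letters were read to show what lies just before the starts of the genes, and the windows of 4 genes are shown. The RefSeq promoter table used here (GRCm38.p6) has entries for 7 of the 9 genes, and the 250 bases before each start were searched on both strands for AACAAT and ACAAAG, which are core sequences bound by SOX proteins, and for TGACG and its palindrome TGACGTCA, the cyclic AMP response element (CREB site). The windows shown are Itpr3 (chr17:27057054-27057303, plus strand), P2ry2 (chr7:101012054-101012303, minus strand, the first of its 2 starts), Aqp1 (chr6:55336049-55336298, plus strand) and Sstr2 (chr11:113619077-113619326, plus strand). Capitals mark the matches, which only the Sstr2 window of these 4 holds.
Itpr3: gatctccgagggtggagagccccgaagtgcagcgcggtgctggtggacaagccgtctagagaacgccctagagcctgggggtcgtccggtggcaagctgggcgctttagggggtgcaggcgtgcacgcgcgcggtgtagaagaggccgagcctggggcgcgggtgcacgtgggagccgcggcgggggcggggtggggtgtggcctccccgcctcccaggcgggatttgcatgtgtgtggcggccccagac
P2ry2: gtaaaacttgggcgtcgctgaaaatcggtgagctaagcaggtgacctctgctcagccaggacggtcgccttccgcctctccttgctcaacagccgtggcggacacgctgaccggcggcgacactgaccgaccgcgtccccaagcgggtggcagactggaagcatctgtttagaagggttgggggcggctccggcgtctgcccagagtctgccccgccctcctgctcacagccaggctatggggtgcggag
Aqp1: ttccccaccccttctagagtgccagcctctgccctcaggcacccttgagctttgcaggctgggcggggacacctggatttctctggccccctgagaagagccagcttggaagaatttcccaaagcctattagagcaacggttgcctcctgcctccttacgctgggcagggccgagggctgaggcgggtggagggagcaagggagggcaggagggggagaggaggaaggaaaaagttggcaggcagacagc
Sstr2: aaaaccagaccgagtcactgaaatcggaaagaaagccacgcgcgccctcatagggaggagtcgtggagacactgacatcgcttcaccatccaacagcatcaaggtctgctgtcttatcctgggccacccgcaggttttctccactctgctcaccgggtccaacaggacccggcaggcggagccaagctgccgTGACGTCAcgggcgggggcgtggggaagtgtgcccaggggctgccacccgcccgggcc
AACAAT and ACAAAG were in none of the 8 windows of these 7 genes, and 9.42% and 16.5% of the 32851 windows of all genes held them. TGACG was in the windows of Vipr1 and Sstr2 and in 17.8% of all windows. The full palindrome, which overlaps 2 TGACG matches on opposite strands, was in Sstr2, beginning 58 bases before the start, and in 1.55% of all windows. The 8 windows had 62.0% to 76.4% G and C letters, against a median of 52.4% over all windows. The part of this composition in the absent matches was not tested. The Aqp1 window held 5 CpG dinucleotides, against 16 to 30 in the other windows and a median of 6 over all genes. These matches are descriptions of letters, and binding was not measured here.

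Levels of different genes were compared per kilobase of exon, with exon lengths from GENCODE M21. On that scale Aqp1 had the highest mean over the 6 samples, 1066 normalized reads per kilobase, but its rank among the 9 ran from 1 to 6 in single samples. Ano1 (576) and Itpr3 (553) came next and changed places among the samples, each at ranks 1 to 3. Cftr (283) and Adcy6 (202) followed, P2ry2 had 116, and the 3 peptide hormone receptors were lowest, with 16.5 for Sctr, 11.1 for Vipr1 and 9.06 for Sstr2. The order of the last 3 also differed between samples.

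Sctr encodes the secretin receptor, which raises cyclic AMP and is a marker of large bile ducts. In order of replicate number it had 43.7, 33.4 and 32.3 normalized reads in Control and 22.9, 26.5 and 40.8 in Sox9cKO, and all values below keep that order. The groups overlapped, since Sox9cKO replicate 3 lay above 2 of the 3 Control samples. Sctr had a fold change of 0.812 with a 95% interval of 0.489 to 1.35 (limma, adjusted p 0.677). Secretin itself, Sct, had at most 4.61 normalized reads in any sample.

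Vipr1 encodes VPAC1, a receptor for vasoactive intestinal peptide that also raises cyclic AMP. Its levels were 59.7, 96.5 and 81.8 in Control and 53.7, 59.5 and 36.2 in Sox9cKO. All Sox9cKO values were lower, but the highest of them and the lowest Control value were only 59.5 and 59.7. The fold change was 0.631 (95% interval 0.395 to 1.01, limma adjusted p 0.292, or 0.167 with the block), and the direction held in all 19 alternative fits, none of which called it.

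Sstr2 encodes a somatostatin receptor, the inhibitory input of the group. Control samples had 29.4, 23.2 and 18.4 normalized reads and Sox9cKO samples 16.9, 10.4 and 18.1. The lowest Control and the highest Sox9cKO sample both had 16 reads, so at that edge the groups are separated by the size factors alone. The fold change of 0.648 had an interval of 0.362 to 1.16 (limma, adjusted p 0.423). Sstr2 had 11 to 35 reads per library in the 5 libraries with recovered reads.

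Adcy6 encodes an adenylyl cyclase that calcium inhibits and that sits downstream of these receptors. Levels were 1779.5, 1333 and 1301 in Control and 1466, 1128 and 1226 in Sox9cKO, with overlap. Adcy6 had a fold change of 0.870 (95% interval 0.664 to 1.14, limma adjusted p 0.592), so a fall below 0.664-fold or a rise above 1.14-fold lies outside the interval. Of the 9 membrane adenylyl cyclase genes, Adcy6 was the most abundant per kilobase in every sample, with 55.3% to 59.1% of their summed level in Control and 44.3% to 52.0% in Sox9cKO.

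Of the other 8 membrane adenylyl cyclase genes, limma called 2, Adcy5 higher and Adcy8 lower. Adcy5, a close relative of Adcy6, had 29.4, 42.7 and 33.4 normalized reads in Control and 214, 197 and 143 in Sox9cKO. All 3 Sox9cKO samples were above all Control samples, with a fold change of 5.11 (95% interval 3.42 to 7.63, limma adjusted p 0.00501), and Adcy5 passed in all 19 alternative fits. Its share of the summed level was 0.915% to 1.67% in Control and 5.63% to 7.29% in Sox9cKO. Adcy8, a cyclase that calcium stimulates, fell from 9.25, 31.6 and 19.6 normalized reads to 1.99, 0 and 0 (limma, adjusted p 0.0377). It reached the minimum mean of 10 only through Control, where its mean was 20.1, so its place among the tested genes already rests on that difference. Its fitted size depended on the pseudocount, with log2 fold changes of -2.07 at 5, -3.72 at 1 and -6.03 at 0.1, the last with the call lost (adjusted p 0.0799). Adcy8 also lost its call with quantile normalization (adjusted p 0.0505), in edgeR on 5 libraries (0.0926), and without Control replicate 1 (limma, adjusted p 0.0861), without Sox9cKO replicate 2 (0.101) or without Sox9cKO replicate 3 (0.0948), and was below the minimum level without Control replicate 2 or 3. Adcy10, the soluble cyclase that bicarbonate activates, fell from 88.3, 107 and 114 to 12.9, 24.6 and 38.5. Its fold change was 0.233 (95% interval 0.123 to 0.441, limma adjusted p 0.0379). The summed level of the 9 membrane cyclases was 324 to 447 per kilobase in Control and 352 to 416 in Sox9cKO, and these ranges overlapped.

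**Figure D3:**
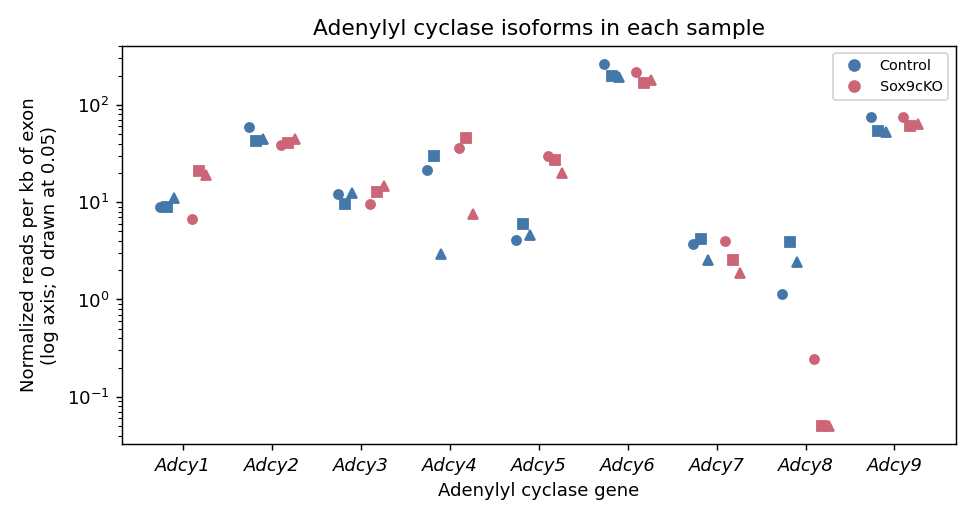
Normalized reads per kilobase of exon (log axis, with 0 drawn at 0.05) of the 9 membrane adenylyl cyclase genes in each sample, with color giving the genotype and shape the replicate number. Adcy6 is highest in every sample, while Adcy5 is higher and Adcy8 lower in all Sox9cKO samples.

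Cftr encodes the chloride channel that cyclic AMP opens at the duct lumen. It had 2349, 909.6 and 3718 normalized reads in Control and 1016, 2448 and 2744 in Sox9cKO, a 4.09-fold range over the 6 samples. The genotypes overlapped almost fully, and the pairs of equal replicate number differed by -1.21, 1.43 and -0.44 (log2, Sox9cKO minus Control). The fold change was 0.951 with a wide interval of 0.379 to 2.38 (limma, adjusted p 0.967). The sign turned in 8 of the 19 alternative fits, and leaving out Control replicate 1, Control replicate 3 or Sox9cKO replicate 1 each turned it. The lowest levels were in Control replicate 2 and Sox9cKO replicate 1, where the endothelial sums were 44514 and 35430, and the highest was in Control replicate 3, where that sum was 2001. Sox9cKO replicate 2 did not follow this order, with 2448 normalized reads at the highest endothelial sum of 45594. The part of endothelial RNA in the Cftr level was not tested beyond a fit with an endothelial covariate, where its log2 difference between the genotypes was 0.35 (adjusted p 0.666, limma).

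Ano1 encodes TMEM16A, the calcium-activated chloride channel of the calcium route. Control samples were close together, at 3487, 3006 and 3176 normalized reads, whereas Sox9cKO samples had 5405, 2014 and 4488. Sox9cKO replicates 1 and 3 were above and replicate 2 was below all Control samples. The fold change of 1.14 had an interval of 0.653 to 1.98 (limma, adjusted p 0.830), and its sign turned without Sox9cKO replicate 1.

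Itpr3 encodes the type III inositol trisphosphate receptor, the calcium release channel near the duct lumen. It had 3772, 3278 and 4375 normalized reads in Control (mean 3808 ± 549, SD, n = 3) and 6567, 5175 and 6734 in Sox9cKO (mean 6159 ± 856, SD, n = 3). Every Sox9cKO sample was above every Control sample, and the 3 pairs differed by 0.80, 0.66 and 0.62 on the log2 scale. Itpr3 was 1.62-fold higher, with a 95% interval of 1.25 to 2.09. Its adjusted p-value from limma was 0.0699 without the block, so it missed the threshold, and 0.00937 with it. With the endothelial covariate, an alternative chosen after the data were seen, Itpr3 passed with an adjusted p-value of 0.0193 (limma, 0.79 on the log2 scale). That fit called 631 of the 17153 genes tested, against 510 in the fit without a covariate.

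The other inositol trisphosphate receptors did not share this direction. Itpr1 had 2999 to 3546 normalized reads in Control and 1936 to 2660 in Sox9cKO (limma, adjusted p 0.131, or 0.0832 with the block), and Itpr2 had 2717 to 3015 and 2321 to 2605 (adjusted p 0.337, or 0.197 with the block). Per kilobase, Itpr3 made up 52.1%, 49.7% and 57.6% of the sum of the 3 receptor genes in Control and 73.5%, 64.1% and 72.0% in Sox9cKO. The share was higher in every Sox9cKO sample, and the samples are too few for an exact permutation test to pass the threshold.

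P2ry2 encodes the receptor for ATP and UTP that starts the calcium route from the duct lumen. It had 306, 378 and 380.2 normalized reads in Control (mean 355 ± 42.2, SD, n = 3) and 449.7, 641 and 569 in Sox9cKO (mean 553 ± 96.5, SD, n = 3). The groups did not overlap, and the 3 pairs differed by 0.55, 0.76 and 0.58 on the log2 scale. P2ry2 was 1.55-fold higher (95% interval 1.17 to 2.06), with a limma adjusted p-value of 0.118 without the block and 0.0264 with it. P2ry1, a related receptor for ADP, had 49.5 to 183 normalized reads in Control and 69.1 to 210 in Sox9cKO, and its groups overlapped (adjusted p 0.742).

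Aqp1 encodes the water channel of the duct cell, and it is also strongly expressed in endothelium. Its levels were 1779.5, 4575 and 229 normalized reads in Control and 4106, 5391 and 728 in Sox9cKO. Replicate 3 was lowest and replicate 2 highest in both genotypes, and the pairs differed by 1.21, 0.24 and 1.66 (log2). The fold change of 2.05 had an interval of 0.309 to 13.6 (limma, adjusted p 0.703), and with the block its log2 interval was 0.44 to 1.63 (adjusted p 0.0544). Without Control replicate 3 the log2 fold change was -0.18.

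Endothelial markers moved with Aqp1 in every sample. Relative to the sum of the 12 endothelial markers, Aqp1 was at 12.8%, 10.3% and 11.5% in Control and at 11.6%, 11.8% and 10.1% in Sox9cKO, so this ratio varied 1.27-fold while the level varied 23.5-fold. By the spread of that ratio over the 6 samples (SD 0.13 on the log2 scale), Aqp1 was the closest to the endothelial sum among 102 tested genes of the member and pathway lists and the 14th closest of 17153 genes. The 17153 genes include the 12 markers that form the sum. For the other 8 of the 9 genes the ratio to the same sum varied between 22.4-fold and 90.9-fold. The sum itself varied 22.8-fold, so a gene with a steady level has a ratio that varies about as much. In the replicate 2 pair, where the endothelial sums were 44514 and 45594, Aqp1 was at 4575 and 5391. With the endothelial covariate the log2 fold change of Aqp1 was -0.076, with an interval of -0.37 to 0.22 (limma, adjusted p 0.801). These 6 values share their libraries, so the ratio is given as a description.

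**Figure D4:**
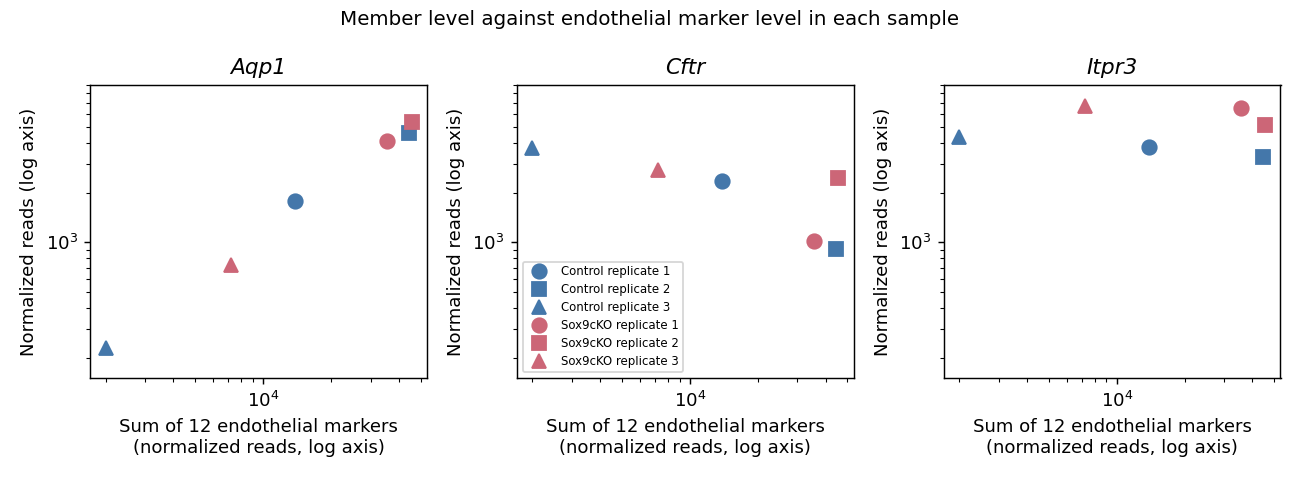
Normalized reads of Aqp1, Cftr and Itpr3 against the sum of 12 endothelial markers in the same sample (both axes logarithmic), with color giving the genotype and shape the replicate number. Aqp1 lies near a straight line from 229 at an endothelial sum of 2001 to 5391 at 45594, and the points of the other genes do not.

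The other genes of the pathway were taken from 5 lists of 125 genes, of which 93 reached the level needed for testing. With limma, 4 rose and 2 fell, against 2.03% and 0.939% of all genes tested, and with the replicate block 7 rose and 6 fell, against 5.06% and 2.99%. The 2 that fell include Adcy8, which was tested only because of its Control level. Their median log2 fold change was 0.084, against 0.036 for all genes. Leaving out single samples lowered the count of 6 to between 1 and 3.

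In the cyclic AMP list, 4 of 30 tested genes passed, which were Adcy5 and Pde4d (higher) and Adcy8 and Adcy10 (lower), against 2.97% of all genes, at a list median of 0.11. Pde4d encodes a phosphodiesterase that degrades cyclic AMP. It had 612, 624 and 598 normalized reads in Control and 1167, 1044 and 1663 in Sox9cKO, a fold change of 2.07 (95% interval 1.54 to 2.78, limma adjusted p 0.0291). Its relatives Pde4b, at 2528 to 4649 in Control and 3580 to 4661 in Sox9cKO, and Pde4c, at 449 to 1030.2 and 235 to 405, did not pass (adjusted p 0.874 and 0.175), although Pde4c passed with the block (0.00723). The most abundant genes of the list that did not pass also included Ezr, for the membrane linker ezrin, and Gnas, for the stimulatory G protein, with log2 fold changes of 0.43 and 0.16 (limma, adjusted p 0.245 and 0.682). Rapgef3, for the cyclic AMP sensor EPAC1, passed with the block (0.0326), and its levels of 222, 786 and 180 in Control and 607, 1086 and 348 in Sox9cKO were highest in the 3 samples with the highest endothelial sums. With the endothelial covariate its log2 difference was 0.45 (limma, adjusted p 0.531). Adcy10 and Pde4d each lost their calls in 4 of the 6 fits without 1 sample. For Adcy10 these were the fits without any one Control sample or without Sox9cKO replicate 2 (limma, adjusted p 0.0952 to 0.138), and for Pde4d those without any one Control sample or without Sox9cKO replicate 1 (0.0649 to 0.126).

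In the calcium list, 1 of 24 tested genes passed, against 2.97% of all genes, at a list median of 0.11. It was Orai1, for the store-operated calcium channel, with 84.9, 146 and 91.0 normalized reads in Control and 278, 240.04 and 219.6 in Sox9cKO. The groups did not overlap, and the fold change was 2.34 (95% interval 1.58 to 3.46, limma adjusted p 0.0458). Orai1 kept its call in 1 of the 6 fits without 1 sample, the one without Control replicate 2, and had adjusted p-values of 0.0919 to 0.168 in the other 5. The most abundant genes of the list were Atp2a2 and Atp2b1, for calcium pumps of the endoplasmic reticulum and the plasma membrane, and Itpr1. The pumps had fold changes close to 1 (log2 -0.13 and -0.016, limma adjusted p 0.681 and 0.971).

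In the list of ion and bicarbonate effectors, 1 of 30 tested genes passed, against 2.97% of all genes. This was Slc4a4, for the sodium bicarbonate cotransporter NBCe1 that loads bicarbonate into duct cells. It rose from 2159, 3284 and 2964 normalized reads in Control to 8419, 5488 and 5822 in Sox9cKO, with no overlap. The fold change was 2.34 (95% interval 1.64 to 3.33, limma adjusted p 0.0319, or 0.0245 with the block), and it kept its call in 1 of the 6 fits without 1 sample, the one without Control replicate 2 (0.0535 to 0.114 in the other 5). Slc4a2, for the anion exchanger AE2 that CFTR works with, was at 886 to 1098 in Control and 897 to 1272 in Sox9cKO (fold change 1.09, interval 0.833 to 1.42, adjusted p 0.758). Atp1b1, for a sodium pump subunit, and the kinase gene Wnk1 were among the most abundant genes of the list and did not pass in either fit (limma, adjusted p 0.785 and 0.651 without the block). With the block, Slc4a7 also rose and Kcne3 and Slc4a5 fell, 3 genes named after their values were seen (limma, adjusted p 0.00730, 0.0359 and 0.0333). Slc4a5 reached the minimum mean only through Control, where its mean was 22.3 against 4.88 in Sox9cKO.

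Of the hormones and their other receptors, 5 of 21 listed genes reached the level for testing, and 0 passed with limma, at a list median of 0.095. None had an unadjusted p-value under 0.05, and with the block 1 did. Among the most abundant were Ednrb and Adora2a, for an endothelin and an adenosine receptor, with log2 fold changes of 0.93 and 0.095 (limma, adjusted p 0.739 and 0.884). Ednrb was the second closest of the 102 listed genes to the endothelial sum. Gast, for gastrin, was under the minimum level, with 11.8, 16.7 and 12.7 normalized reads in Control and 2.98, 1.89 and 1.13 in Sox9cKO, and passed only in the fit without that minimum (limma, adjusted p 0.0414). Of the water channels other than Aqp1, 4 of 11 listed genes were tested and 0 passed. Their highest level in any sample was 157 normalized reads, for Aqp9, whose groups overlapped. Aqp9 passed with the block (limma, adjusted p 0.0128, higher in Sox9cKO) but not without it (0.247). The unadjusted p-value was under 0.05 for 1 of the 4. Aqp5 and Aqp3, next in abundance, had log2 fold changes of -0.14 and 1.83 with overlapping groups (limma, adjusted p 0.923 and 0.360). Aqp3 reached the minimum mean of 10 only through Sox9cKO, where its mean was 27.5 against 8.54 in Control.

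**Figure D5:**
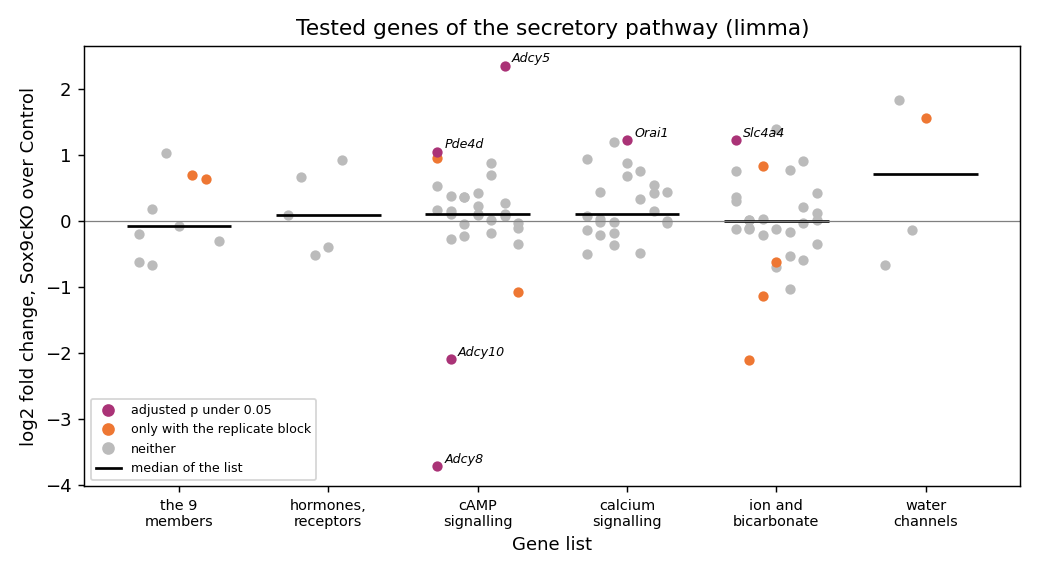
Log2 fold change of Sox9cKO over Control (limma) for each tested gene of the 9 members and of 5 pathway lists, with black lines at the list medians. The named points passed an adjusted p-value of 0.05, from Adcy8 at -3.72, a size that depends on the pseudocount, to Adcy5 at 2.35, and orange points passed only with the replicate block.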

How the data were processed

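Total RNA was depleted of ribosomal RNA and made into stranded libraries with molecular identifiers, per the labels' protocols. The deposited values are a signal, gene counts divided by 1 factor per sample, and GRCm39 and DESeq2 1.36.0 are named in the submitters' processing notes. The aligner, the annotation, and the use of strand and identifiers are not given in the sources used here. All values were whole multiples of the lowest value above 0 in their sample (100% within 0.001 reads). For Sox9cKO replicate 1 that step was too close to 1 to be accepted as a test of whole reads, so count tests with edgeR 4.0.16 and DESeq2 1.42.0 used the other 5 libraries.

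Values were transformed to log2(value + 1), which understates fold changes of genes with few reads. The 17153 genes with a mean of at least 10 entered limma 3.58.1, run in R 4.3.3 (two-sided, intensity trend, Benjamini-Hochberg adjustment over all genes). Fold changes and 95% intervals come from this fit. Samples of the same replicate number deviated together (correlations across genes 0.207, 0.472 and 0.542, with the numbers taken from the sample titles), so fits with the replicate number as a block are given where they change a call. Tests were also checked on simulated data. The 9 genes, the lists and the tests were chosen with earlier results of these data known. Named genes are the 9 members, Sox9, every listed gene called, and up to 3 further genes per list by abundance, and genes outside this rule were named after their values were seen. Exon lengths came from GENCODE M21 on GRCm38, where all 187 listed genes in the table had a match. Of the 125 pathway genes, 112 had a row under their symbols. Some genes that the naming rule covers are not reported here.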

Additional observations from a re-analysis of the deposited data

How the results depend on the processing

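Each result was refitted under 19 alternatives, of which 15 were planned and 4, the 3 count tests on 5 libraries and the endothelial covariate, were chosen after the data were seen. Count tests on all 6 libraries were not run. Of the 9 genes, 0 were called, against 1 with array weights (P2ry2), 2 with the replicate block, 1 with the endothelial covariate (Itpr3) and 0 in the limma fits without 1 sample. Over all genes 510 were called, against 1043 with array weights, 1381 with the replicate block and 631 with the endothelial covariate. The limma fits without 1 sample called 200 to 389. For the pathway lists the count of 6 became 2 without the intensity trend, 10 with array weights, 13 with the replicate block and 1 to 3 in limma without 1 sample. The count tests without Sox9cKO replicate 1 called 337 genes with edgeR, 983 with edgeR and the replicate block and 1157 with DESeq2, and in the same order 0, 1 and 2 of the 9 genes and 1, 12 and 12 pathway genes. Cftr turned positive with array weights (0.042), the endothelial covariate (0.35), and without Control replicate 1 (0.044), Control replicate 3 (0.38) or Sox9cKO replicate 1 (0.38). Its full range was -0.64 to 0.44, and the 3 count tests gave 0.12, 0.44 and 0.13. Ano1 turned negative with array weights (-0.25) and without Sox9cKO replicate 1 (-0.098), had a range of -0.098 to 0.61 in limma without 1 sample, and was at -0.021, -0.084 and -0.016 in the 3 count tests. Aqp1 turned negative with the endothelial covariate (-0.076) and without Control replicate 3 (-0.18), in a range up to 1.98. The cause was not tested. Itpr3, P2ry2, Sctr, Vipr1, Sstr2, Adcy6 and the 6 called pathway genes kept their direction in every alternative in which they were tested. The replicate block changed no call among the other 7 genes or Sox9. Sctr, Sstr2 and Adcy8 fell below the minimum mean of 50. The 3 peptide hormone receptors had 11 to 104 reads per library in the 5 libraries with recovered reads, the fewest of the 9 genes, and the part of depth in their missing calls was not tested.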

Other observations

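Sox9cKO replicate 1 stood apart in a pair of transporter genes from the list of ion and bicarbonate effectors, both named after their values were seen. Slc9a3, for the sodium/proton exchanger NHE3, had 535 normalized reads in that sample, 5.04 to 13.9 in the Control samples, and 0 and 2.26 in the other Sox9cKO samples. Slc26a3, for a chloride/bicarbonate exchanger, had 348 in that sample, 9.25 to 38.0 in Control, and 13.2 and 45.3 in the other Sox9cKO samples. Neither gene passed the test (limma, adjusted p 0.974 and 0.581).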
